A study of Rattus norvegicus with 4 samples.

Results

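The genes described here encode the enzymes that remove peroxides and superoxide and keep glutathione and thioredoxin reduced. They were taken by platform gene symbol: glutathione S-transferases of the alpha, mu, pi, theta, omega and kappa classes, glutathione peroxidases, superoxide dismutases, peroxiredoxins other than Prdx4, genes whose symbols start with Txn, and Cat, Gclm, Gsr, Gss, Hmox1, Hmox2 and Nqo1. This gave 46 genes, read by 54 probes, of 9653 genes with a probe listed for 1 gene. Of these 46 genes, 39 had 1 probe, 6 had 2 and 1 had 3, and all 46 had a value on all 4 arrays. Gclc, the catalytic subunit of glutamate-cysteine ligase, had no probe among them.

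Retinas came from albino Lewis rats that were raised from birth in ordinary laboratory housing with a daily light cycle, and were taken at 5, 11 or 20 weeks of age. No strain, genotype or treatment distinguished the groups. Whole retinas were pooled before RNA extraction, so no value belongs to a single animal, and the labels give neither the number of animals per pool nor their sex. Each of the 4 two-colour arrays carried an older and a 5-week sample: 2 arrays for 11 weeks and 2 for 20 weeks, each pair with the dyes exchanged. Whether both arrays of a pair held different RNA extracts is not stated. If they held the same extracts, the p-values below measure only the spread of the technique, with 1 pool per age.

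Values are given as the log2 of the older retina relative to the 5-week retina, after each array was centred on the median of its probes with 1 gene symbol. "With Cy5" and "with Cy3" name the dye of the older retina. The ratios were read as Cy5 over Cy3, which is likely from the order of ages in the titles but not stated, and the opposite reading would exchange every "higher" and "lower". Before centring, the median gene stood at 0.06 at 11 weeks and 0.29 at 20 weeks, so every change is relative to that gene. Read as Cy5 over Cy3, the median of the probes used for centring was 0.543 on the 20-week array with Cy5 and -0.01 with Cy3. On the 11-week arrays it was -0.045 and -0.13. The 20-week offset thus came mostly from a single array. Ratios carry no level, so the abundance of a transcript, its detection and the identity of the tissue could not be checked. In pooled whole tissue, fewer cells of a type and less RNA per cell cannot be told apart.

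Glutathione is made by glutamate-cysteine ligase and glutathione synthetase, is used by peroxidases and S-transferases, and is returned to its reduced form by glutathione reductase with NADPH. Thioredoxin and its reductases run a parallel NADPH-driven system that supplies the peroxiredoxins. Photoreceptors carry many polyunsaturated lipids and consume much oxygen, and Müller glia hold much of the glutathione of the retina. The transcription factor NRF2, held back by KEAP1, drives many of these genes through antioxidant response elements.

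"Passed" below means a Benjamini-Hochberg adjusted p under 0.05 over all genes in a limma model with an age effect and a gene-wise dye effect. After centring, 3 of 5 peroxiredoxins and the mitochondrial superoxide dismutase passed as lower in the older retina at both ages. Of these, Prdx5 had opposite signs on its 20-week arrays, and the deposited 20-week mean of Prdx1 was 0.004. The 7 members that passed as higher at 20 weeks were Gstm6l, Txnip, Gsta4, Nqo1, Gsr, Gsta3 and Gpx7. The 2 arrays of Gpx7 had opposite signs. At 11 weeks 4 of 46 members passed as lower (8.70%, against 6.34% of all genes) and 1 as higher (2.17%, against 2.61%). At 20 weeks 11 passed as lower (23.9%, against 13.9% of all genes) and 7 as higher (15.2%, against 17.8%). The 11-week shares lay close to the background, and the 20-week share passed as higher did not exceed it. The difference between members and background was not tested. Counts for families and lists below stand beside these same shares of all genes. Over the members the median change was -0.04 at 11 weeks and -0.01 at 20 weeks, beside 0.02 and 0.01 over all genes.

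The 4 members that passed as lower at 11 weeks, Prdx1, Prdx2, Prdx5 and Sod2, also passed as lower at 20 weeks. Both comparisons share the 5-week retina, and 3.06% of all genes passed as lower at both ages. None of the members passed as higher at both ages, against 1.86% of all genes. By sign alone, 11 members lay below the median gene on all 4 arrays (23.9%, against 12.1% of all genes) and 5 lay above it on all 4 (10.9%, against 11.5%). The remaining 30 changed sign between arrays.

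These calls depend on the dye effect being fitted. Without a dye term no member passed at 11 weeks, at 20 weeks or between them, and neither did any other gene (0% in each comparison). In that model 1 member had an unadjusted p under 0.05 at 11 weeks, 5 at 20 weeks and 1 between 20 and 11 weeks, against 367, 888 and 270 of all genes. With a dye term, centring on the median of all probes instead of the named ones left 0 members passed at 11 weeks and all 18 of those at 20 weeks. How many of all genes passed under that centring was not counted. The loss at 11 weeks therefore cannot be read as particular to the members. The 11-week changes themselves hardly moved under that centring, for example from -0.302 to -0.306 for Prdx2 and from 0.2925 to 0.2885 for Sod3. Ratios as deposited, without centring, left 0 at either age. There the differing array medians enter the error of every gene in the model with a dye term. That setting therefore cannot show whether the members in particular lose their calls.

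**Figure D1:**
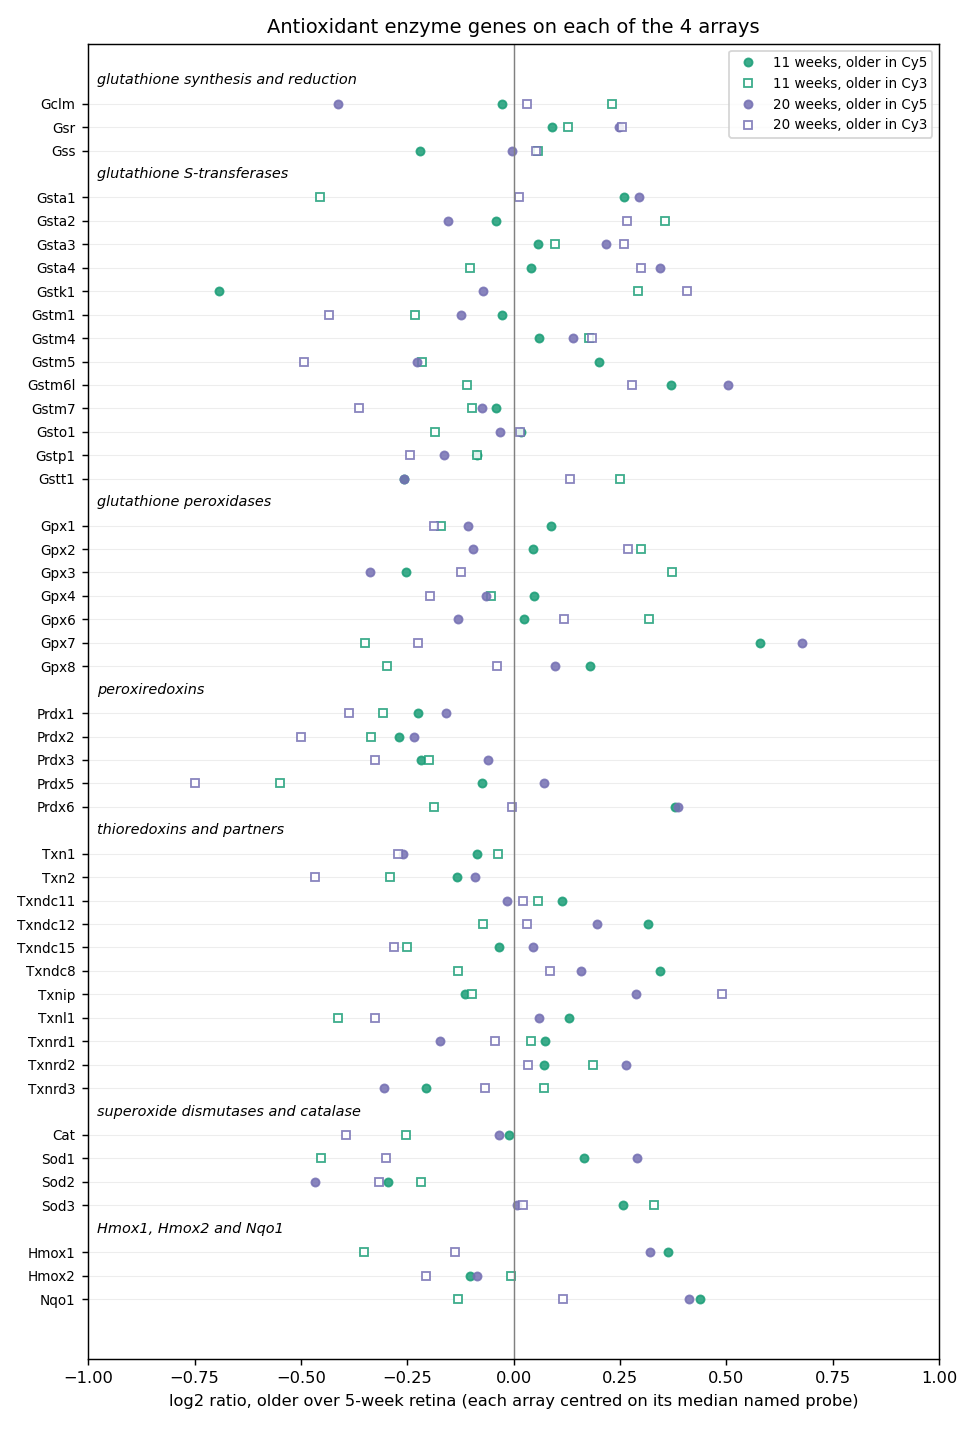
Log2 ratio, older retina to 5-week retina, (horizontal axis) for the 46 member genes, grouped by role, on each of the 4 arrays. Filled circles are arrays with the older retina in Cy5 and open squares arrays with it in Cy3, in green for 11 weeks and purple for 20 weeks. After centring all 4 points of Prdx1, Prdx2, Prdx3 and Sod2 lie left of 0 (the deposited 20-week means of Prdx1 and Prdx3 are above 0), and all 4 points of Gsr lie right of it.

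Peroxiredoxins reduce hydrogen peroxide through a reactive cysteine. Of the 5 measured, 3 passed as lower at both ages and 0 as higher, with a median of -0.27 at 11 weeks and -0.27 at 20 weeks that became -0.22 and 0.004 in the ratios as deposited. Prdx2, the cytosolic form that is abundant in neurons and red cells, was at -0.27 with Cy5 and -0.33 with Cy3 at 11 weeks, and at -0.24 and -0.50 at 20 weeks. All 4 arrays placed it below the median gene, with means of -0.30 ± 0.05 (SD, n = 2) and -0.37 ± 0.19 (SD, n = 2), the latter a 0.775-fold ratio. Its adjusted p in limma with a dye term was 0.0278 at 11 weeks and 0.00402 at 20 weeks.

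Prdx1, the other main cytosolic peroxiredoxin, was at -0.22 with Cy5 and -0.31 with Cy3 at 11 weeks, and at -0.16 and -0.39 at 20 weeks. It too was low on all 4 arrays, with means of -0.27 and -0.27 and limma adjusted p values of 0.0385 and 0.0138. Prdx3, the mitochondrial peroxiredoxin, was at -0.22 and -0.20 at 11 weeks and at -0.06 and -0.33 at 20 weeks. All 4 of its values were negative, yet it did not pass at 11 weeks (adjusted p = 0.0967) or at 20 weeks (adjusted p = 0.0664).

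Prdx5, found in mitochondria, peroxisomes and cytosol, was at -0.08 with Cy5 and -0.55 with Cy3 at 11 weeks, and at 0.07 and -0.75 at 20 weeks. Its sign differed between the 20-week arrays, and its call rests on subtracting a dye effect of 0.32. With a dye term its 11-week value was -0.14 without the Cy5 array and -0.49 without the Cy3 array, against -0.31 with both. At 20 weeks these were -0.51 and -0.17, against -0.34. Prdx6, which also reduces phospholipid peroxides, stood apart from the others, at 0.38 and -0.19 at 11 weeks and at 0.38 and -0.00 at 20 weeks, and did not pass (adjusted p = 0.392 and 0.0561).

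Lists of marker genes of cell types or tissues, some of them joint, were read on the same arrays, as changes and not as levels. How specific these markers are in this tissue was not checked. Over all genes 2.61% passed as higher and 6.34% as lower at 11 weeks, and 17.8% and 13.9% at 20 weeks. Of 7 measured rod markers, 5 passed as lower at 11 weeks and 3 at 20 weeks. Their list medians differed by dye, at -0.22 with Cy5 and -0.69 with Cy3 at 11 weeks, and at -0.00 and -0.71 at 20 weeks. Of 9 measured Müller cell and astrocyte markers, 2 passed as lower at 11 weeks and 5 at 20 weeks, with 1 higher at 20 weeks and array medians from -0.23 to -0.02. Of 9 lens markers, 6 and 4 passed as lower, with array medians from -0.34 to -0.15. Among 4 measured red-cell markers, 0 passed as lower at either age and 1, Alas2, passed as higher at 20 weeks with 0.73 on the Cy5 and -0.23 on the Cy3 array, with array medians from 0.00 to 0.18. Of 5 pigment epithelium and choroid markers, 1 passed as higher and 1 as lower at 11 weeks and 2 and 1 at 20 weeks, with array medians from -0.12 to 0.15. Of 9 vessel markers, 0 passed at 11 weeks and 2 as lower at 20 weeks, with array medians from -0.23 to 0.17. The part of these cell types in the peroxiredoxin and Sod2 values was not tested.

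Superoxide dismutases turn superoxide into hydrogen peroxide, which catalase breaks down. Of these 4 genes, 1 passed as lower and 1 as higher at 11 weeks, and 2 as lower at 20 weeks. Sod2, the manganese enzyme of mitochondria, was at -0.30 with Cy5 and -0.22 with Cy3 at 11 weeks, and at -0.47 and -0.32 at 20 weeks. It was low on all 4 arrays, and its 20-week mean, -0.39 ± 0.11 (SD, n = 2), a 0.762-fold ratio, was the lowest of the 46 members (adjusted p = 0.0393 at 11 weeks and 0.00239 at 20 weeks in limma).

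Sod3, the secreted dismutase, had the opposite pattern in time, at 0.26 and 0.33 at 11 weeks but 0.01 and 0.02 at 20 weeks. The 2 pairs of arrays did not overlap, the 11-week change passed (0.29 ± 0.05, SD, n = 2, adjusted p = 0.0256), and the 20-week change did not (adjusted p = 0.878). The difference of -0.28 between both changes did not pass (adjusted p = 0.124), so a fall between 11 and 20 weeks was not shown. Sod1, the copper-zinc enzyme of the cytosol, was at 0.17 with Cy5 and -0.45 with Cy3 at 11 weeks, and at 0.29 and -0.30 at 20 weeks. Its sign followed the dye, with means of -0.14 and -0.01, and it did not pass (adjusted p = 0.188 and 0.959). Cat, catalase, was at -0.01 and -0.25 at 11 weeks and at -0.04 and -0.40 at 20 weeks. All 4 of its values were negative, and its mean of -0.22 at 20 weeks passed (adjusted p = 0.0338).

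Thioredoxins are small disulfide reductases. Of the 11 genes whose symbols start with Txn, 0 passed at 11 weeks, and 2 passed as lower and 1 as higher at 20 weeks. Txn1, the cytosolic thioredoxin, was at -0.09 with Cy5 and -0.04 with Cy3 at 11 weeks, and at -0.26 and -0.27 at 20 weeks. The 20-week arrays lay close together (-0.27 ± 0.01, SD, n = 2, adjusted p = 0.0138). Txn2, the mitochondrial thioredoxin, was at -0.13 and -0.29 at 11 weeks and at -0.09 and -0.47 at 20 weeks. All 4 values were negative, and the 20-week mean of -0.28 passed (adjusted p = 0.0147), but was -0.17 with a dye term when the 20-week Cy3 array was left out.

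The thioredoxin reductases, flavoenzymes that return thioredoxin to its reduced form, did not pass. Txnrd1, the cytosolic form, was at 0.07 with Cy5 and 0.04 with Cy3 at 11 weeks, and at -0.17 and -0.04 at 20 weeks. Txnrd2, the mitochondrial form, had means of 0.13 and 0.15 and was above the median gene on all 4 arrays. Txnrd3 had means of -0.07 and -0.19. The remaining genes that did not pass were Txndc8, Txndc11, Txndc12 and Txndc15, which carry thioredoxin-like domains, and Txnl1, whose means ran from -0.14 to 0.12 over both ages.

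Txnip encodes the inhibitor of thioredoxin that also limits glucose uptake. It was at -0.11 with Cy5 and -0.10 with Cy3 at 11 weeks, and at 0.29 and 0.49 at 20 weeks. Both 11-week arrays lay below 0 and both 20-week arrays above it. The 20-week mean of 0.39 ± 0.14 (SD, n = 2), a 1.31-fold ratio, passed (adjusted p = 0.00300), and Txnip was the 1 member that passed between 20 and 11 weeks, by 0.49 (SE 0.10, adjusted p = 0.0175). That is 2.17% of the members as higher, against 3.55% of all genes, and 0 members passed as lower, against 1.18%. The next largest differences between both ages were 0.37 for Gstk1, 0.35 for Gsta4 and -0.35 for Gstm5, with adjusted p values of 0.124, 0.0626 and 0.0678. No array held 11-week and 20-week RNA together, so this comparison runs through the 5-week retina, and age and slide cannot be told apart in it.

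The 2 Txnip probes disagreed. Probe 2 was at 0.75 with Cy5 and 0.43 with Cy3 at 20 weeks, and at -0.19 and -0.26 at 11 weeks. Probe 1 was at -0.17 and 0.55 at 20 weeks, and at -0.04 and 0.06 at 11 weeks. Tested as single probes, probe 2 passed at 20 weeks (adjusted p = 0.000452) and between both ages (adjusted p = 0.00146), while probe 1 did not (adjusted p = 0.165 and 0.522).

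**Figure D2:**
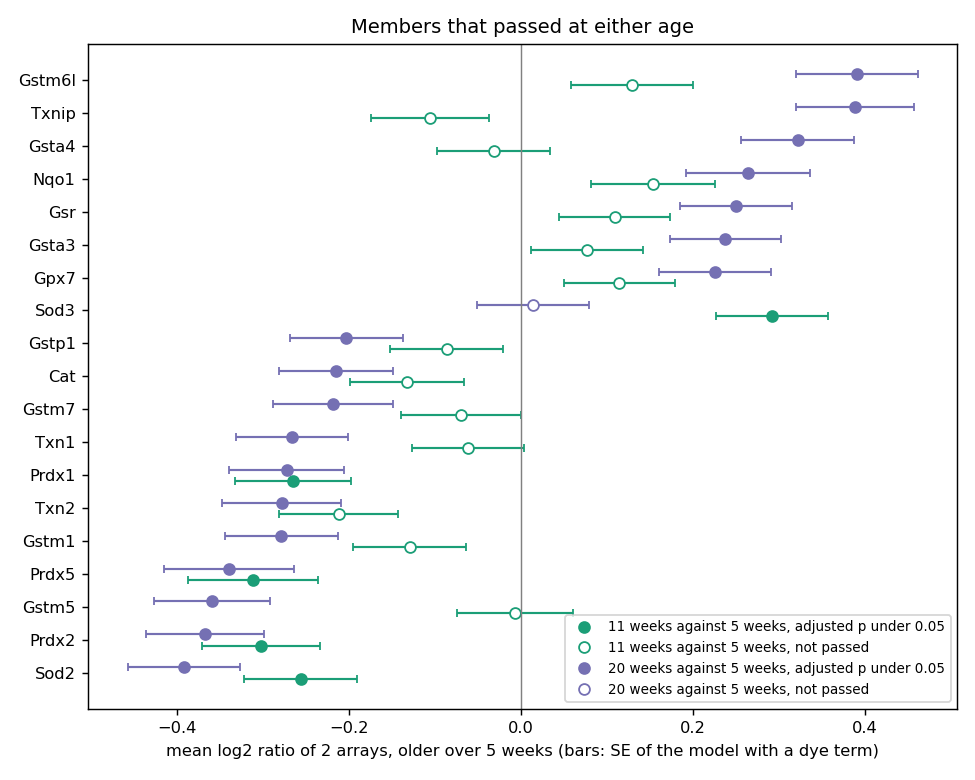
Mean log2 ratio of 2 arrays at 11 weeks (green) and 20 weeks (purple) for the 19 members that passed at either age. Bars are standard errors from the limma model with a dye term, and filled points passed. After centring Sod2, Prdx2, Prdx5 and Prdx1 are filled on the left at both ages (Prdx1 is at 0.004 at 20 weeks as deposited), and Sod3 is filled at 11 weeks only.

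Glutathione synthesis and reduction showed 1 change among 3 measured genes. Gsr, glutathione reductase, was at 0.09 with Cy5 and 0.13 with Cy3 at 11 weeks, and at 0.25 and 0.25 at 20 weeks. All 4 arrays were above the median gene, and the 20-week mean of 0.25 ± 0.005 (SD, n = 2), a 1.19-fold ratio, passed (adjusted p = 0.0174). Gclm, the modifier subunit of glutamate-cysteine ligase, was at -0.03 and 0.23 at 11 weeks and at -0.41 and 0.03 at 20 weeks. Gss, glutathione synthetase, was at -0.22 and 0.06 at 11 weeks and at -0.00 and 0.05 at 20 weeks. Both changed sign with the dye at 20 weeks, and neither passed (adjusted p = 0.0578 and 0.811 at 20 weeks).

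Glutathione S-transferases join glutathione to electrophiles such as products of lipid peroxidation. None of the 13 measured passed at 11 weeks, and at 20 weeks 4 passed as lower and 3 as higher. The classes divided. Of 4 alpha-class genes, 2 passed as higher and none of the class as lower, around a median of 0.20 (0.47 as deposited). Of 5 mu-class genes, 3 passed as lower and 1 as higher, with a median of -0.22 that turned to 0.06 as deposited. The single pi-class gene, Gstp1, passed as lower, and was at 0.07 as deposited. The difference between the classes was not tested.

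Gsta4, which is known for detoxifying 4-hydroxynonenal, was at 0.04 with Cy5 and -0.10 with Cy3 at 11 weeks, and at 0.34 and 0.30 at 20 weeks. The 20-week arrays did not overlap the 11-week arrays, and their mean of 0.32 ± 0.03 (SD, n = 2) passed (adjusted p = 0.00618). Gsta3 was at 0.06 and 0.10 at 11 weeks and at 0.22 and 0.26 at 20 weeks, positive on all 4 arrays, with an adjusted p of 0.0213 at 20 weeks. Gsta1 and Gsta2 did not pass, with 20-week means of 0.15 and 0.06. The 2 Gsta2 probes disagreed: probe 1 was between 0.18 and 0.32 on all 4 arrays, and probe 2 ranged from -0.54 to 0.53 with its sign following the dye. Tested as single probes, probe 1 passed as higher at 20 weeks (0.28, adjusted p = 0.0155) and probe 2 did not (-0.17, adjusted p = 0.0976).

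In the mu class, Gstm1 was at -0.03 with Cy5 and -0.23 with Cy3 at 11 weeks, and at -0.13 and -0.43 at 20 weeks. It was negative on all 4 arrays and passed at 20 weeks (-0.28, adjusted p = 0.0117). Gstm5 was at 0.20 and -0.22 at 11 weeks and at -0.23 and -0.49 at 20 weeks, with both 20-week arrays below both 11-week arrays (20-week mean -0.36 ± 0.19, SD, n = 2, adjusted p = 0.00402). Gstm7, chosen after its values were seen because it passed, was at -0.04 and -0.10 at 11 weeks and at -0.07 and -0.36 at 20 weeks (adjusted p = 0.0388 at 20 weeks). Its 20-week value of -0.22 was -0.10 with a dye term when the 20-week Cy3 array was left out, and -0.33 when the Cy5 array was.

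Gstm6l, a mu-class gene, went the other way, at 0.37 with Cy5 and -0.11 with Cy3 at 11 weeks, and at 0.50 and 0.28 at 20 weeks. Its 20-week mean of 0.39 ± 0.16 (SD, n = 2), a 1.31-fold ratio, was the highest of the 46 members (adjusted p = 0.00355). Gstm4 was at 0.06 and 0.18 at 11 weeks and at 0.14 and 0.18 at 20 weeks, positive throughout but not passed (adjusted p = 0.0835). In the RefSeq gene table of the GRCr8 assembly, Gstm5, Gstm6l and Gstm7 are consecutive protein-coding genes on chromosome 2, and Gstm1 and Gstm4 adjoin each other 4 genes further on. Neighbours in this cluster thus lay on opposite sides of the median gene. Mu-class genes are close copies, and the probes' cross-hybridisation among them could not be checked.

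Gstp1, the pi-class enzyme, was at -0.09 with Cy5 and -0.09 with Cy3 at 11 weeks, and at -0.16 and -0.24 at 20 weeks. All 4 values were negative, and the 20-week mean of -0.20 ± 0.06 (SD, n = 2) passed (adjusted p = 0.0398), but its single probe did not when probes were tested in place of genes (adjusted p = 0.0514). Gstt1, Gsto1 and Gstk1 of the theta, omega and kappa classes did not pass at either age. Gstk1 had the widest spread of the 3, at -0.69 and 0.29 at 11 weeks and -0.07 and 0.41 at 20 weeks.

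Glutathione peroxidases reduce hydrogen peroxide and lipid peroxides with glutathione. Of 7 measured, 0 passed at 11 weeks and 1 passed at 20 weeks. Gpx1, the cytosolic selenoenzyme, was at 0.09 with Cy5 and -0.17 with Cy3 at 11 weeks, and at -0.11 and -0.19 at 20 weeks. Gpx4, which reduces phospholipid hydroperoxides in membranes and protects photoreceptors, was at 0.05 and -0.05 at 11 weeks and at -0.07 and -0.20 at 20 weeks. The 20-week values of Gpx1 overlapped its 11-week values, those of Gpx4 lay below them, and neither gene passed (adjusted p = 0.122 and 0.149 at 20 weeks).

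Gpx3, the secreted plasma form, was at -0.25 with Cy5 and 0.37 with Cy3 at 11 weeks, and at -0.34 and -0.12 at 20 weeks. It missed the threshold at 20 weeks (-0.23, adjusted p = 0.0506), and that value was -0.03 with a dye term without the 20-week Cy3 array and -0.44 without the Cy5 array. Gpx7, a peroxidase of the endoplasmic reticulum chosen after its values were seen because it passed, was at 0.58 and -0.35 at 11 weeks and at 0.68 and -0.23 at 20 weeks. Its sign followed the dye on all 4 arrays, and its 20-week mean of 0.23 ± 0.64 (SD, n = 2) passed (adjusted p = 0.0260) only in the model that subtracts a dye effect of 0.46. Gpx2, Gpx6 and Gpx8 did not pass, with means from -0.06 to 0.17 over both ages.

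Haem oxygenases degrade haem to biliverdin, and Nqo1 reduces quinones. None of the 3 passed at 11 weeks. Nqo1 was at 0.44 with Cy5 and -0.13 with Cy3 at 11 weeks, and at 0.41 and 0.12 at 20 weeks. Its 20-week mean of 0.26 ± 0.21 (SD, n = 2) passed (adjusted p = 0.0211), but with a dye term was 0.13 without the 20-week Cy3 array and 0.40 without the Cy5 array. Hmox1, the inducible form and a common stress marker, was at 0.36 and -0.35 at 11 weeks and at 0.32 and -0.14 at 20 weeks. Its sign followed the dye on all 4 arrays, more widely on probe 2 (-0.62 to 0.59) than on probe 1 (-0.08 to 0.20), and it did not pass at 20 weeks (0.09, adjusted p = 0.345). Hmox2, the constitutive form, was at -0.10 and -0.01 at 11 weeks and at -0.09 and -0.20 at 20 weeks, and did not pass (adjusted p = 0.133 at 20 weeks).

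**Figure D3:**
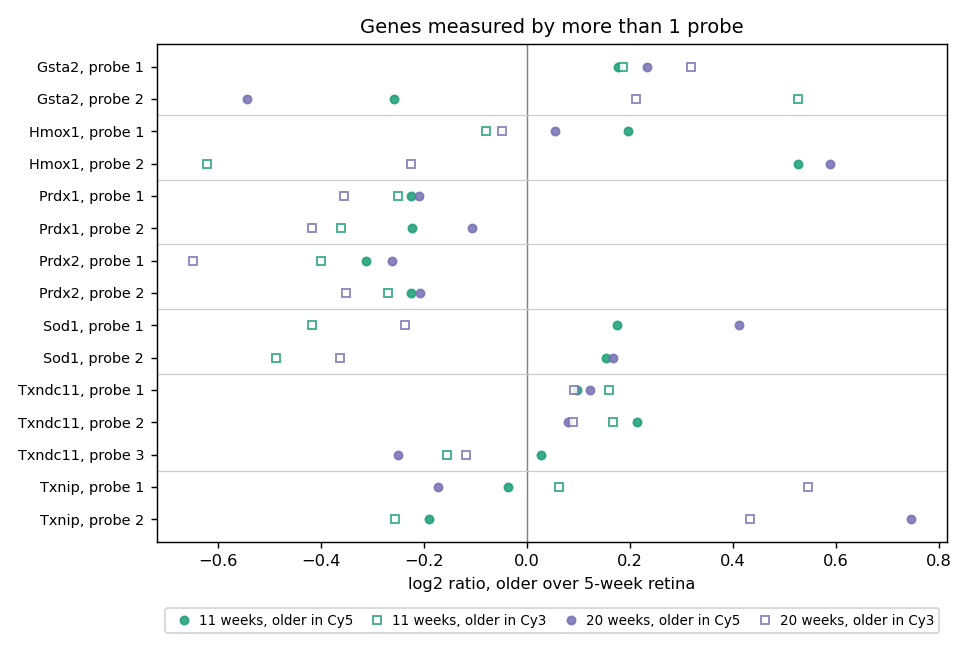
Log2 ratio, older retina to 5-week retina, for the 7 member genes with more than 1 probe, one row per probe and 4 points per row (circles: older retina in Cy5, squares: in Cy3, green: 11 weeks, purple: 20 weeks). After centring both probes of Prdx1 and of Prdx2 lie below 0 on all 4 arrays (the deposited 20-week mean of Prdx1 is 0.004), while the probes of Gsta2, Txnip and Txndc11 disagree.

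Where several probes read a gene, agreement varied. The 2 Prdx2 probes had 20-week means of -0.46 and -0.28, and the 2 Prdx1 probes -0.28 and -0.26, and all of these passed as single probes at 20 weeks. At 11 weeks probe 2 of Prdx1 and probe 1 of Prdx2 passed (adjusted p = 0.0368 and 0.0217), and the other probe of each did not (adjusted p = 0.0646 and 0.0559). Both Sod1 probes changed sign with the dye at both ages. Of the 3 Txndc11 probes, 2 were positive on all 4 arrays, and the other was at -0.25 and -0.12 at 20 weeks.

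The dye effect, the amount by which either array of a pair departs from their mean, was as large as the age effect for many members. It exceeded the mean change for 23 of 46 members at 11 weeks (50%, against 59.0% of all genes) and for 17 at 20 weeks (37.0%, against 45.9%). Its median size among the members was 0.12 at both ages, beside median changes in either direction of 0.11 and 0.18. Over all 9653 genes, the turned ratios of the 11-week arrays correlated at r = -0.30 and those of the 20-week arrays at r = 0.17. Across ages, arrays of the same dye orientation correlated at 0.68 with Cy5 and 0.59 with Cy3. Those of opposite orientation correlated at -0.08 and -0.34, so the arrays resembled each other more by dye than by age. These correlations run across genes, which are not independent replicates. Dye effects recurred between the pairs: Gpx7 had 0.46 and 0.45, Sod1 0.31 and 0.29, and Gstk1 -0.49 and -0.24. The median absolute difference between the pairs was 0.08 for members and 0.07 for all genes, and the errors of the model with a dye term rest on this difference.

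**Figure D4:**
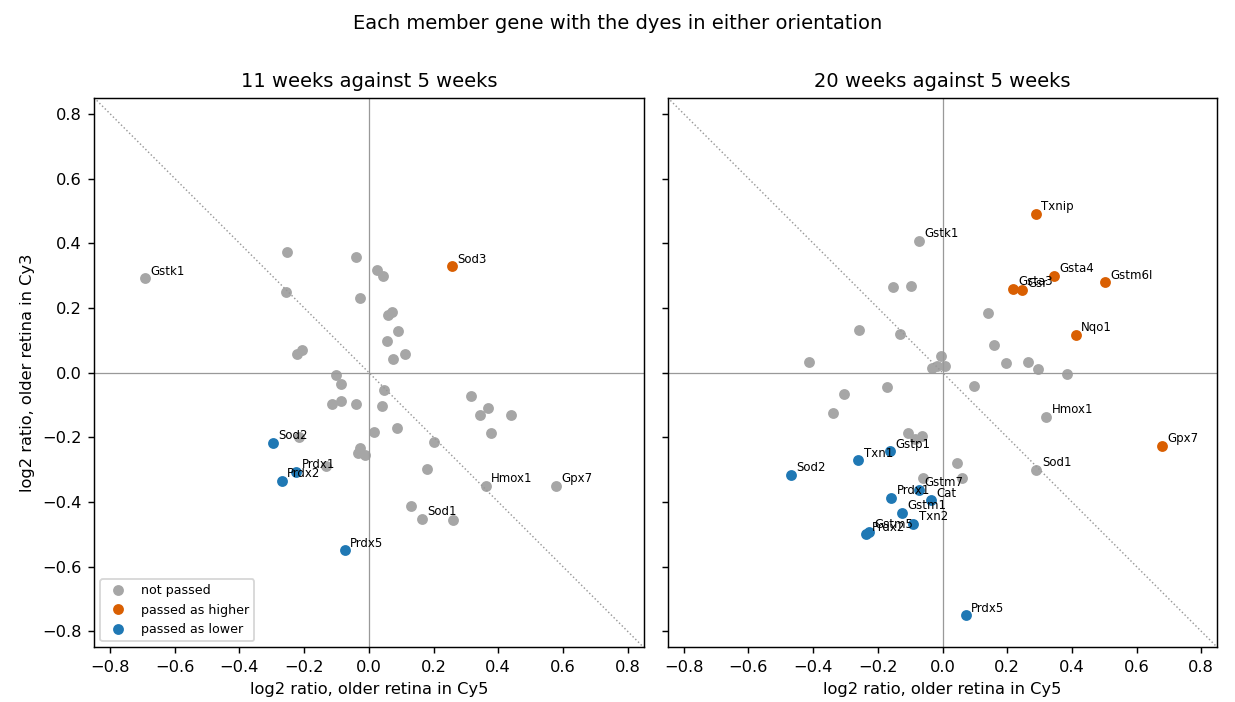
Log2 ratio with the older retina in Cy5 (horizontal) against that with it in Cy3 (vertical) for each member, at 11 weeks (left) and 20 weeks (right). Points on the dotted diagonal have a mean of 0 and differ only by dye. Blue and orange points passed as lower and higher, and Gpx7 and Prdx5 passed at 20 weeks with opposite signs on the 2 arrays.

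The promoters of the members were searched for the core of the antioxidant response element, TGACNNNGC, on both strands of RefSeq windows of the GRCr8 assembly from 250 bases before to 50 bases after each annotated start. Windows were found for 38 of 46 members, and 14 of their 43 windows (32.6%) held the motif, against 12.1% of all 33469 windows and 14.4% of the windows of genes on the array. By outcome at 20 weeks, 6 of 11 members that passed as lower held it, 1 of 4 with a window that passed as higher, and 7 of 23 that did not pass. These are matches of letters, not sites in use, and bases outside the windows were not searched. The shares by outcome were not tested against each other. The match in Prdx1 and that in Gstp1 also hold TGANTCA, the core bound by AP-1 factors.

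The first matches of the 7 members that passed at 20 weeks and held the motif are shown because they lie in genes that moved in both directions. Each is given 5′ to 3′ on the gene's strand with 20 bases on either side and the motif, or its reverse complement, in capitals. With the annotated start as 0, the first match begins at -135 in Prdx1, -1 in Prdx5, -35 in Sod2, -113 in Gstm5 (which has another at -53), -14 in Gstm7, -61 in Gstp1 and -17 in Gsta3.
Prdx1, lower, chr5:135383751-135383799, gene on the plus strand: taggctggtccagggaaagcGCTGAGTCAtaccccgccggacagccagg
Prdx5, lower, chr1:213532000-213532048, gene on the minus strand: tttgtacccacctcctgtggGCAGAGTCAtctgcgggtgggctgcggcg
Sod2, lower, chr1:50050175-50050223, gene on the minus strand: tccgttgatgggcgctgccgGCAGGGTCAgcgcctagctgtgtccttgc
Gstm5, lower, chr2:198219636-198219684, gene on the plus strand: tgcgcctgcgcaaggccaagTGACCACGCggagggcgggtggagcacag
Gstm7, lower, chr2:198260305-198260353, gene on the minus strand: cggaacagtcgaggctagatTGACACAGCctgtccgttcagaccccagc
Gstp1, lower, chr1:210769738-210769786, gene on the minus strand: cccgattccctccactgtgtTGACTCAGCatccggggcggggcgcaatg
Gsta3, higher, chr9:31154952-31155000, gene on the plus strand: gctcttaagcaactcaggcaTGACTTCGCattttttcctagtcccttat
Gsta3, whose ratio was higher, carried the motif in the same orientation as Gstm5, Gstm7 and Gstp1, whose ratios were lower. Prdx1, Prdx5 and Sod2, whose ratios were also lower, carried its reverse complement. A relation between orientation and direction of change was not tested.

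Genes around these enzymes were read from 6 lists. Over all genes 2.61% passed as higher and 6.34% as lower at 11 weeks, and 17.8% and 13.9% at 20 weeks. The lists were not tested against these shares, and the genes named are the largest passed changes of each list. Of 6 measured genes of NRF2 regulation, 0 passed at 11 weeks, and 2 passed as higher and 2 as lower at 20 weeks. Mafg, a small Maf partner of NRF2, was at 1.24 with Cy5 and 0.46 with Cy3 at 20 weeks, against -0.03 and -0.41 at 11 weeks (20-week mean 0.85, adjusted p = 0.000111). Keap1, the NRF2 inhibitor, was at 0.31 and 0.25 at 20 weeks and passed as higher (adjusted p = 0.0133). Sqstm1, the autophagy receptor p62 that binds KEAP1, was at -0.22 and -0.35 and passed as lower (adjusted p = 0.0157).

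A list of 16 measured genes held glutaredoxins, sulfiredoxin, microsomal transferases, methionine sulfoxide reductases and sestrins, with Park7, Ccs, Selenop and Selenow. Of these, 1 passed as higher and 4 as lower at 11 weeks, and 4 as higher and 5 as lower at 20 weeks. Park7 and Selenow were among those lower at both ages. Srxn1, sulfiredoxin, which repairs overoxidised peroxiredoxins, was high on all 4 arrays, at 0.33 with Cy5 and 0.39 with Cy3 at 11 weeks and at 0.37 and 0.57 at 20 weeks. It thus lay above the median gene where its substrates Prdx1 and Prdx2 lay below it. Sesn2, a stress-induced sestrin, was at 0.93 and 0.76 at 20 weeks but -0.12 and 0.17 at 11 weeks. Selenow, a small selenoprotein, was at -0.13 and -0.37 at 11 weeks and at -0.38 and -0.68 at 20 weeks.

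Of 20 measured genes of cystine uptake and glutathione turnover, 2 passed as lower at 11 weeks, and 4 as higher and 1 as lower at 20 weeks. Chac1, which degrades glutathione, had a 20-week mean of 0.39, and Dpep1, a dipeptidase that cleaves cysteinylglycine, 0.45. Hagh, the glutathione-dependent hydrolase of the glyoxalase system, was at -0.34 and -0.40 at 20 weeks. Of 8 genes of NADPH supply, 0 passed at 11 weeks, and 1 passed as higher and 2 as lower at 20 weeks. Idh1, the cytosolic NADP-dependent isocitrate dehydrogenase, was at -0.52 and -0.18 at 20 weeks. Me2, a mitochondrial malic enzyme, was at -0.44 and -0.15. Rpia, an isomerase of the pentose phosphate pathway, was at 0.85 and 0.43.

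Of 12 iron, haem and metal-binding genes, 2 passed as lower at 11 weeks, and 2 as higher and 3 as lower at 20 weeks. Mt2A, a metallothionein, was at 0.64 with Cy5 and 0.63 with Cy3 at 20 weeks against -0.31 and 0.04 at 11 weeks. Tf, transferrin, was between -0.52 and -0.39 on all 4 arrays. Tfrc, the transferrin receptor, followed the dye, at -0.95 and 0.04 at 20 weeks. Of 11 genes that produce superoxide or peroxide, 0 passed at 11 weeks, and 2 passed as higher and 2 as lower at 20 weeks. Ncf1, a subunit of the phagocyte NADPH oxidase, was at 1.26 and 0.56 at 20 weeks against -0.03 and -0.44 at 11 weeks. Duox2, a dual oxidase, was at -1.37 and 0.07 at 20 weeks, and Hao2, a hydroxyacid oxidase, at -0.14 and 0.87.

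Of 8 measured markers of microglia and leukocytes, 0 passed at 11 weeks, and 3 passed as higher and 0 as lower at 20 weeks, with list medians of 0.29 with Cy5 and -0.06 with Cy3 at 20 weeks. Tyrobp, an adaptor protein of myeloid cells, was at 0.61 and 0.25. At 20 weeks 1 of the 8 lay below the median gene with Cy5 and 5 with Cy3. Over all genes 17.8% passed as higher and 13.9% as lower at 20 weeks. The part of these cells in the 20-week values was not tested.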

How the data were processed

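Two-colour arrays were read from the deposited value table, whose log2 ratios the authors had already normalized by a method not given in the sources used here. Ratios at the ceiling of the file, a linear ratio of 1e+05, were set to missing, which touched 0 named probes. Of 22575 probes, 12750 were listed with 1 gene, 5 with several and 9820 with none in the platform annotation, and gene names rest on that annotation. Each array was centred on the median of the named probes and turned to older over 5 weeks. Where several probes read 1 gene, their mean was used. All 9653 genes were fitted with limma 3.58.1 in R 4.3.3, once without a dye term (2 residual degrees of freedom) and once with a gene-wise dye term shared by the 4 arrays (1 residual degree of freedom), with Benjamini-Hochberg adjustment. All adjusted p-values quoted come from the limma model with a dye term. Its errors come from how far a gene's dye effect differs between the 2 pairs and from the spread over genes, not from the SD printed beside a change. The labels give no replicate number, and the arrays are not paired across ages.

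The members, the marker lists for rods, Müller cells and astrocytes, pigment epithelium and choroid, red blood cells, lens, microglia and leukocytes and vessels, and the pathway lists were chosen with earlier results of these data known. Values on all 4 arrays are given for the up to 16 members with the largest change and 1 sign on both arrays of an age, and for a fixed list of principal enzymes. From each pathway list the up to 3 largest changes that passed are named. Alternatives were the ratios as deposited, centring on all probes, equal spread of the arrays by median absolute values, the median of a gene's probes, single probes, and each array left out. The fits were also run on simulated data with independent noise and a dye effect equal on all 4 arrays. The model with a dye term assumes the same, so that run cannot show how reliable the calls are here.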

Additional observations from a re-analysis of the deposited data

Results flagged for a closer look

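Txnip was the 1 member whose change differed between 20 and 11 weeks in a test of the difference itself, by 0.49 on the log2 scale (limma with a dye term). It lay above the median gene on both 20-week arrays and below it on both 11-week arrays, and its 2 probes disagreed.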

How the results depend on the processing

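With ratios as deposited, 0 members passed in any comparison, and without a dye term 0 passed. As deposited, the array medians enter the error of every gene in the model with a dye term, so that setting does not bear on single members. Centring on all probes left 0 at 11 weeks, where each array's median moved by at most about 0.02, and the cause was not tested. How many of all genes passed under that centring was not counted. All 18 calls at 20 weeks remained under that centring and with the median of probes, and 17 with equal spread. As deposited, the median gene stands at 0.06 and 0.29, and by that construction the median member moved to 0.27 at 20 weeks and 0.22 between 20 and 11 weeks. The 20-week offset lay mostly on the array with Cy5, whose named probes had a median of 0.543. The sign changes below that involve 20 weeks contain this offset. The 20-week median was -0.020 when centred on all probes and -0.021 with equal spread, and ran from -0.048 to -0.0078 with single arrays left out. As deposited, among the 28 named members, the sign turned at 11 weeks for Gpx1 (0.0015), Gpx4 (0.0395), Gsta4 (0.011) and Gstm5 (0.0355). At 20 weeks it turned for Cat (0.0615), Gclm (0.0865), Gpx1 (0.1285), Gpx3 (0.045), Gpx4 (0.146), Gstp1 (0.0735), Hmox2 (0.131), Prdx1 (0.004), Prdx3 (0.083), Sod1 (0.2715), Txn1 (0.0105) and Txnrd1 (0.168). Between 20 and 11 weeks it turned for Cat (0.1515), Gpx1 (0.127), Gpx4 (0.1065), Gstm1 (0.0845), Gstp1 (0.1175), Hmox2 (0.1435), Prdx1 (0.22675), Prdx2 (0.168), Prdx5 (0.2065), Sod2 (0.0985), Txn1 (0.0295), Txn2 (0.1675) and Txnrd1 (0.068). Among the other members it turned at 11 weeks for Gstt1 (0.039), and at 20 weeks for Gstm7 (0.058), which had passed, Gpx6 (0.27), Gsto1 (0.2675), Gstt1 (0.214), Txndc15 (0.159), Txnl1 (0.1425) and Txnrd3 (0.09). Between 20 and 11 weeks it turned among them for Gpx2 (0.148), Gpx6 (0.056), Gsta2 (0.1315), Gstm7 (0.085), Gstt1 (0.175), Txndc11 (0.151), Txndc12 (0.226) and Txnrd3 (0.116). With single probes tested, 1 of 54 member probes passed as higher and 4 as lower at 11 weeks. At 20 weeks 8 and 12 passed, and between 20 and 11 weeks 1 and 0. These are counts of probes, and a gene with several probes can enter more than once. The share that passed over all named probes was not counted. Gstp1 lost its call in this setting. With equal spread Hmox1 turned at 11 weeks (-0.0259), and the cause was not tested. With 1 array left out, the model with a dye term has no residual degrees of freedom and gives values with no test. No paired analysis was possible because the columns carry no replicate number. The number of arrays limits the precision.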
